A study of Homo sapiens with 6 samples.

Results

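The 45 genes described here encode the proteins of homologous recombination and Fanconi crosslink repair, with end joining, mismatch repair and the kinases that signal DNA damage. They were chosen by name for these pathways, with earlier results of the data known. Of the 60671 genes in the deposited table, 43 of the 45 were found by the gene name the table gives, and FANCG and PRKDC, whose rows carry no name, by their Ensembl identifiers. The cells were U87, an established human glioblastoma cell line, and all 6 libraries are from this single line. The 3 treated libraries came from cells exposed for 48 h to 100 μM rutaecarpine, a plant alkaloid, and the 3 control libraries from cells exposed for 48 h to 0.1% DMSO, the solvent that the treated cells also received. Dosing was done in serum-free medium in both groups. The labels do not say whether replicates were separate cultures, so p values measure only the spread between these libraries, which may be technical.

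Homologous recombination copies the sister chromatid to mend a broken DNA end. The ends are cut back to single strands, BRCA1, BRCA2 and their partners prepare the strand that invades the template, and joined molecules are then taken apart by helicases and nucleases. The Fanconi pathway unhooks crosslinks between DNA strands. Its core complex and an E2 enzyme place ubiquitin on the FANCD2-FANCI clamp, which calls in nucleases and recombination factors. Because a sister chromatid is needed, many of these genes are transcribed mainly in the S and G2 phases of the cell cycle, whereas many end-joining factors work throughout the cycle.

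Values are TPM, estimated transcript abundances corrected for gene length and scaled to a common total in each library, so levels can be compared between genes. Differences are given as log2 fold changes, rutaecarpine over control, on the log2(TPM + 1) scale, which understates the change of weakly expressed genes. A gene was called when its adjusted p from limma, a linear model fitted to the 14377 genes that reached 1 TPM in 3 or more libraries, was at most 0.05. A differentially expressed gene (DEG) was a called gene that differed by more than 1 on the log2 scale. All 45 repair genes passed the filter. Depth is unknown, since TPM keep no read numbers.

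Promoter windows are shown first for 4 genes that fell after treatment and held a motif of a cell cycle regulator, E2F or CHR, in the window. E2F factors drive genes of S phase, the CHR is a site of the complex that drives G2 and mitosis genes, and the CCAAT box is a general promoter element often found beside the CHR. The windows are RefSeq sequence on GRCh38.p14, run from 250 bases before to 50 bases after the transcription start, and are written 5′ to 3′ on the gene's own strand. Capitals mark each motif match. For FANCD2 (chr3:10026187-10026486, plus strand) the capitals mark an E2F motif 2 bases before the start, for EXO1 (chr1:241847954-241848253, plus strand) an E2F motif 4 bases after it, and for FANCA (chr16:89816598-89816897, minus strand) an E2F motif 172 bases before it and a CCAAT box 33 bases before it. For UBE2T (chr1:202341887-202342186, minus strand) they mark, in order, a CHR motif, 2 CCAAT boxes and a DRE core.
FANCD2: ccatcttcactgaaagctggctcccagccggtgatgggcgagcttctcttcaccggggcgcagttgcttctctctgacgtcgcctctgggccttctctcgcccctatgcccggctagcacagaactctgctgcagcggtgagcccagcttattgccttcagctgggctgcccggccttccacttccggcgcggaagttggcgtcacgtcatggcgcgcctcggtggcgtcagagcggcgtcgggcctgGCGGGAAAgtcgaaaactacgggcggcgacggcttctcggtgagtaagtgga
EXO1: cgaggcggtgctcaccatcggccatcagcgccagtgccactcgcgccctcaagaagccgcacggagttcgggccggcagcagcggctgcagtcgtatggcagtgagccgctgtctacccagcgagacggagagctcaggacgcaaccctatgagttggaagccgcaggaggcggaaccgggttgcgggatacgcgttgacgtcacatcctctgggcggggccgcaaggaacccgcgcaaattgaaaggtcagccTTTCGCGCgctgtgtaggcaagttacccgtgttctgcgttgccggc
UBE2T: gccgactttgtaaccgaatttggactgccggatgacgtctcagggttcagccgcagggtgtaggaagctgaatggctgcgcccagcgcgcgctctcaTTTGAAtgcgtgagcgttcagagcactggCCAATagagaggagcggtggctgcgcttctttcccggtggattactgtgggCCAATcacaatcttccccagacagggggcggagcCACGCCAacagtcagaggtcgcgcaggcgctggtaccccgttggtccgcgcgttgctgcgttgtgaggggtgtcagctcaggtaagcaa
FANCA: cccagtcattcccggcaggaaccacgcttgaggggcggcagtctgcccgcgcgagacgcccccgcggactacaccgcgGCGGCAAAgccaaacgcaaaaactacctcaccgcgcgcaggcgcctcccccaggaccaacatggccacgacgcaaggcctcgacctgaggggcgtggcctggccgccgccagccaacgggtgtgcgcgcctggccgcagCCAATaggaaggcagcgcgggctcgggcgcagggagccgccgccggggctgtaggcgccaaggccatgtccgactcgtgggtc

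The E2F motif was searched as TTTCCCGC, TTTCGCGC, TTTGCCGC or TTTGGCGC, the CHR as TTTGAA, the CCAAT box as CCAAT and the DRE core, the site of the aryl hydrocarbon receptor (AhR), a transcription factor that the study examined, as TNGCGTG, all on both strands. None of these letter strings contains another. RefSeq gave 60 windows for 40 of the 45 genes, and FANCI, NBN, RMI2, XRCC5 and PRKDC had no entry. An E2F motif was in 11 of the 60 windows (18.3%) and in 3.32% of all 35116 windows. Its carriers were EXO1, MSH6, FANCD2, TOPBP1, PMS2, XRCC2, RMI1, FANCC, FANCA and XRCC6. Within 50 bases of the start on either side, the shares were 15% and 1.05%. The CCAAT box was in 50% of the repair gene windows and in 34.6% of all windows, the CHR in 10.0% and 15.2%, and the DRE core in 11.7% and 5.51%. In the narrower stretch around the start the shares were 23.3% and 10.7% for the CCAAT box. There they were 3.33% and 4.62% for the CHR and 3.33% and 1.89% for the DRE core. The CHR was there in 0 of the 9 windows of the genes called lower, so that of UBE2T lay further out. The DRE core was in windows of UBE2T, ATR, LIG4, RAD51D and RAD51C, of which UBE2T was called. Among the 9 windows of the genes called lower, 3 held an E2F motif, as did 8 of the 51 windows of those not called. These matches are letter matches only.

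After rutaecarpine, 8 of the 45 repair genes were called lower and 0 higher. Across all tested genes 4.68% were called lower and 4.6% higher. The 8 were FANCD2, RAD54L, EXO1, UBE2T, RMI2, FANCA, EME1 and FANCG, and the first 5 of these were DEGs, against 1.5% of all tested genes that were DEGs lower and 2.01% that were DEGs higher. At an unadjusted p under 0.05 in limma, 12 repair genes were lower and 0 higher, and of the 14377 tested genes 1584 were lower and 1922 higher. The log2 fold change was below 0 in 35 repair genes and above 0 in 10, with a median of -0.28. Of all tested genes 5847 were below 0 and 8530 above, with a median of 0.08. The treated libraries all lay below the control libraries in 13 repair genes and above them in 1, and over all tested genes in 14% and 19.3%.

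**Figure D1:**
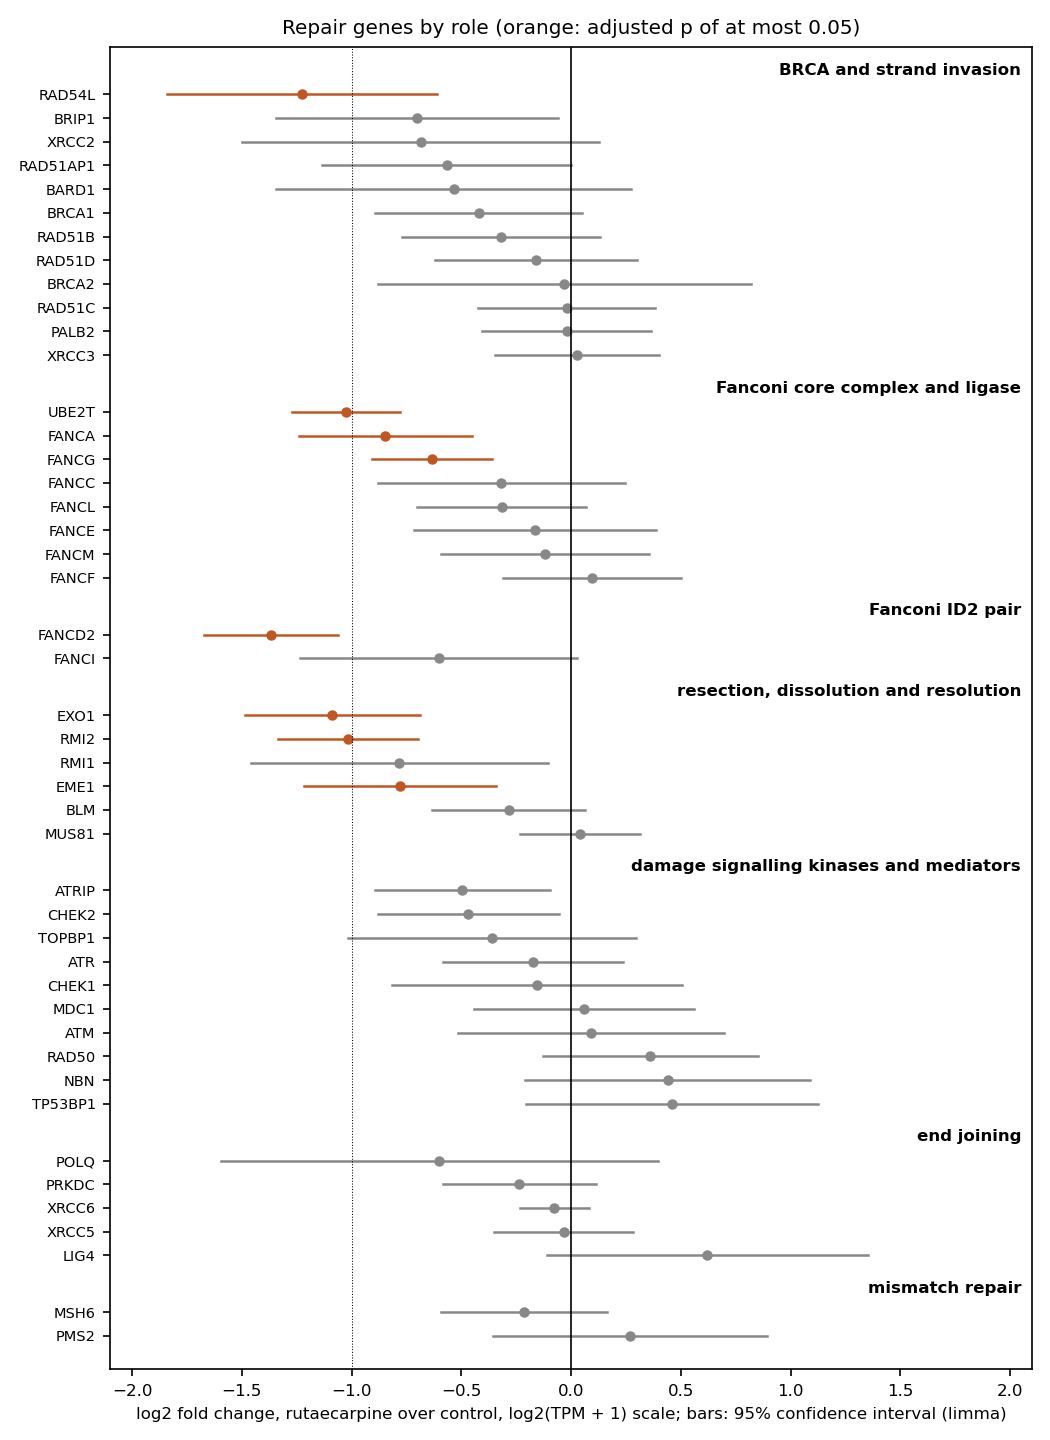
Log2 fold change of each of the 45 repair genes (x axis, rutaecarpine over control, log2(TPM + 1) scale), grouped by role, with 95% confidence intervals from limma as bars. Orange marks the 8 genes called at an adjusted p of at most 0.05, all left of 0 and all in recombination, Fanconi or resection and resolution groups, and the dotted line marks a log2 fold change of -1.

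One control library stood apart, and it touches most of the values below. The median log2 level over tested genes was 3.56 in control replicate 3 and 3.97 and 3.95 in the other controls, and its correlation with them across genes was 0.965, where theirs with each other was 0.986. Its deviation from the mean of the other controls followed transcript length (Spearman rho across genes -0.518) and GC content (0.498). Deviations of the other libraries were likewise taken from the rest of their own group. For length rho was 0.43 and 0.434 in control replicates 1 and 2, and 0.267, -0.425 and 0.27 in rutaecarpine replicates 1, 2 and 3. The baseline of control replicates 1 and 2 included replicate 3, and the treated libraries served as baseline for one another. These values are therefore not independent and do not show a length trend of each library's own. Control replicate 3 was the lowest control in 36 of the 45 repair genes (80.0%) and in 62.3% of all tested genes. The 45 genes summed to 1081, 1082 and 854 TPM in control replicates 1, 2 and 3 and to 868, 816 and 903 TPM in rutaecarpine replicates 1, 2 and 3. By this sum, in which abundant genes weigh most, control replicate 3 lay among the treated libraries. By the median log2 level of the 45 genes it lay just above them. That median was 3.83, 3.86 and 3.44 in control replicates 1, 2 and 3, and 3.37, 3.15 and 3.39 in rutaecarpine replicates 1, 2 and 3. For 16 of the 45 genes (35.6%, and 12.6% of all tested genes) replicates 1 and 2 of the control were above every treated library while replicate 3 was not. Without this library 21 of the 45 genes were called lower and 0 higher, and 10.3% of all tested genes were called lower and 8.36% higher. Leaving out control replicate 1 or 2 left 4 calls each, and leaving out rutaecarpine replicate 1, 2 or 3 left 5, 4 and 3. Of all tested genes, 2.04% and 2.19%, and then 2.03%, 2.08% and 1.83%, were called lower in these fits. With all 6 libraries kept, 12 genes were called lower after centring the libraries on their medians and 11 after a correction for transcript length and GC content. Library weights, which gave this control a weight of 0.121, called 22 lower. The shares of all tested genes called lower in these 3 fits were 5.47%, 5.59% and 14.1%. Of the genes that leaving out this control added, the length and GC correction with all 6 libraries called RMI1, BRCA1 and BRIP1. It did not call FANCI, FANCL, BARD1, RAD51AP1, XRCC2, TOPBP1, CHEK2, PRKDC, POLQ or MSH6 (adjusted p between 0.0623 and 0.19). The part of library quality in these differences was not tested.

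The Fanconi ID2 pair held the largest fall. FANCD2 (ENSG00000144554, chr3:10026414-10101930, GRCh38, plus strand) encodes the clamp subunit whose ubiquitination marks an active Fanconi pathway. Its TPM was 17.5, 16.7 and 19.0 in control replicates 1, 2 and 3 and 6.44, 6.23 and 6.08 in the treated replicates. The treated values spanned a narrow range far below the lowest control, and control replicate 3 was here the highest control. FANCD2 fell from 17.7 ± 1.16 to 6.25 ± 0.181 TPM (mean ± SD, n = 3), a log2 fold change of -1.37 (SE 0.13, adjusted p = 0.0015 in limma). It was called at an adjusted p of at most 0.05 in all 16 alternative fits, with log2 fold changes between -1.49 and -1.27. In the main fit it did not reach an adjusted p of 0.001. Its partner FANCI, the second subunit of the clamp, was at 35.3, 32.3 and 19.6 TPM in the controls and at 14.6, 16.8 and 24.5 TPM after treatment. The FANCI groups overlapped through control replicate 3 and rutaecarpine replicate 3, and its log2 fold change of -0.60 was not called (adjusted p = 0.225). Without control replicate 3 it was -0.86 with an adjusted p of 0.0239. FANCI shares exon sequence with POLG on the opposite strand, which was at 75.4 TPM in control replicate 2 and between 26.4 and 31.0 TPM in the other libraries.

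In the Fanconi core complex and ligase group, 3 of 8 genes were called lower and the median log2 fold change was -0.32. UBE2T (ENSG00000077152, chr1:202331657-202341980, minus strand), the E2 enzyme that carries ubiquitin to FANCD2, was at 54.1, 52.5 and 53.8 TPM in the controls and at 23.2, 26.3 and 28.0 TPM after treatment. The controls were almost equal, and the ratio of the treated to the control mean was 0.483. UBE2T fell from 53.5 ± 0.881 to 25.8 ± 2.43 TPM (SD, n = 3), a log2 fold change of -1.03 (SE 0.10, adjusted p = 0.0018). It was called at an adjusted p of at most 0.05 in all 16 alternative fits. FANCA (ENSG00000187741, chr16:89737549-89816657, minus strand), a large subunit of the core complex, was at 18.8, 19.6 and 15.9 TPM in the controls and at 11.6, 8.18 and 9.25 TPM after treatment. Its log2 fold change was -0.85 (SE 0.17, adjusted p = 0.0238), and it was called in 10 of the 16 alternatives. FANCG (ENSG00000221829, chr9:35073835-35080016, minus strand), the scaffold subunit that binds FANCA, was at 19.16, 20.99 and 19.25 TPM in the controls and at 12, 12.27 and 12.96 TPM after treatment. Both groups of FANCG were tight and did not overlap, with a log2 fold change of -0.63 (SE 0.12, adjusted p = 0.0179), and it was called in 9 of the 16.

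The other core members were not called. FANCL, the E3 ligase subunit that works with UBE2T, averaged 30.3 TPM in controls and 23.7 TPM after treatment, with control replicate 3 at 23.1 TPM among the treated libraries. Without that library its log2 fold change was -0.49 with an adjusted p of 0.00812. FANCC, a core subunit, averaged 6.10 and 4.57 TPM (log2 fold change -0.32). FANCF, an adaptor of the core, averaged 5.61 and 6.03 TPM (0.10), and FANCE, which contacts FANCD2, 1.79 and 1.53 TPM (-0.17). FANCM, the helicase-like anchor of the core on DNA, averaged 1.47 and 1.28 TPM (-0.12). FANCE and FANCM had the lowest control means of the 45 genes. The core thus held subunits that fell next to subunits with intervals spanning 0.

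Of the 6 genes for resection, dissolution and resolution of joined molecules, 3 were called lower, and the median log2 fold change was -0.78. EXO1 (ENSG00000174371, chr1:241847967-241895148, plus strand), the exonuclease that cuts back broken ends, was at 9.27, 9.96 and 7.51 TPM in the controls and at 3.92, 3.74 and 3.27 TPM after treatment. The lowest control was well above the highest treated library. Its log2 fold change was -1.09 (SE 0.17, adjusted p = 0.0092), called in 14 of the 16 alternatives. RMI2 (ENSG00000175643, chr16:11249619-11381662, plus strand), a small subunit of the BLM dissolvasome, was at 13.17, 13.84 and 12.01 TPM in the controls and at 5.98, 5.82 and 5.93 TPM after treatment. The treated values were nearly identical (SD 0.0819 TPM). RMI2 had a log2 fold change of -1.02 (SE 0.14, adjusted p = 0.0054) and was called in 15 of the 16. EME1 (ENSG00000154920, chr17:50373220-50381483, plus strand), the partner of the nuclease MUS81, was at 14.4, 13.1 and 9.84 TPM in the controls and at 6.49, 7.78 and 6.06 TPM after treatment. Its log2 fold change of -0.78 (SE 0.19) was close to the threshold (adjusted p = 0.0448) and was called in 8 of the 16, the fewest of the 8 genes.

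RMI1, the partner of RMI2, was at 7.28, 7.62 and 3.34 TPM in the controls and at 3.03, 2.59 and 3.20 TPM after treatment. The groups did not overlap, but control replicate 3 lay next to the treated libraries, and the log2 fold change of -0.78 was not called (SE 0.29, adjusted p = 0.151). Without that library it was -1.10 with an adjusted p of 0.00324, and with all 6 libraries RMI1 was called after centring on library medians (-0.88, adjusted p = 0.0277) and after a correction for transcript length and GC content (-0.90, adjusted p = 0.034). BLM, the helicase of the dissolvasome, averaged 5.78 ± 0.362 TPM in controls and 4.57 ± 0.186 TPM after treatment (SD, n = 3). Its groups did not overlap and it was not called (log2 fold change -0.28, adjusted p = 0.293), also without control replicate 3. MUS81, the catalytic subunit that cuts joined molecules, averaged 36.1 and 37.2 TPM, with a log2 fold change of 0.04 (95% confidence interval -0.23 to 0.31).

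Among the 12 BRCA and strand invasion genes, 1 was called lower, and the median log2 fold change was -0.37. RAD54L (ENSG00000085999, chr1:46247688-46278473, plus strand), a motor protein that helps a strand invade its template, was at 19.4, 13.5 and 11.1 TPM in the controls and at 7.46, 5.35 and 4.21 TPM after treatment. The spread within both groups was wide, and the groups did not overlap. RAD54L fell from 14.7 ± 4.28 to 5.67 ± 1.65 TPM (SD, n = 3), a log2 fold change of -1.23 (SE 0.26, adjusted p = 0.0302), and was called in 10 of the 16 alternatives.

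BRCA1, the ubiquitin ligase that starts recombination, was at 23.2, 22.8 and 15.3 TPM in the controls and at 15.4, 12.3 and 16.8 TPM after treatment. Control replicate 3 lay within the treated range, and the log2 fold change of -0.42 was not called (SE 0.20, adjusted p = 0.254). Without it the value was -0.61 with an adjusted p of 0.0237, and with all 6 libraries it was called after centring on library medians (-0.51, adjusted p = 0.0407) and after the correction for transcript length and GC content (-0.54, adjusted p = 0.022). BRCA2, a central mediator of recombination, was at 6.13, 3.84 and 2.65 TPM in the controls and at 5.02, 2.09 and 5.36 TPM after treatment. Both groups of BRCA2 were spread across the same range, and the log2 fold change was -0.03 (95% confidence interval -0.88 to 0.82). BRIP1, the helicase that binds BRCA1, was at 3.56, 3.85 and 1.55 TPM in the controls and at 1.55, 1.21 and 1.32 TPM after treatment. Control replicate 3 equalled the highest treated library for BRIP1. Its log2 fold change was -0.70 (SE 0.27, adjusted p = 0.172), and without that library -0.997 with an adjusted p of 0.00828. With all 6 libraries BRIP1 was called after centring (-0.80, adjusted p = 0.0419) and after the length and GC correction (-0.86, adjusted p = 0.0202).

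A like pattern in the libraries was seen in 3 more genes of this group. BARD1, the partner of BRCA1, averaged 4.88 TPM in controls and 2.80 TPM after treatment, with control replicate 3 at 2.17 TPM. RAD51AP1, which stimulates strand invasion, averaged 14.9 and 9.50 TPM, with control replicate 3 at 9.98 TPM. XRCC2, a recombination mediator, averaged 4.47 and 2.19 TPM, with control replicate 3 at 1.94 TPM. In each of the 3, control replicates 1 and 2 were above every treated library and control replicate 3 was not. None was called with all libraries as deposited, and without this control their log2 fold changes were -0.93, -0.81 and -1.09, with adjusted p values of 0.0101, 0.0101 and 0.00581. The length and GC correction with all 6 libraries called none of the 3 (-0.69, -0.64 and -0.74, adjusted p = 0.0951, 0.103 and 0.155). With all 6 libraries centred on their medians, RAD51AP1 was called (-0.66, adjusted p = 0.0314).

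RAD51B, RAD51C, RAD51D, XRCC3, further mediators of recombination, and PALB2 were not called with or without it. RAD51B averaged 5.31 and 4.02 TPM, with groups that did not overlap (log2 fold change -0.32, adjusted p = 0.357). RAD51C averaged 27.4 and 26.9 TPM, with a log2 fold change of -0.02. RAD51D, which shares exons on its strand with a readthrough gene, averaged 8.39 and 7.51 TPM (-0.16). XRCC3 averaged 13.4 and 13.6 TPM (0.03), and PALB2, which joins BRCA1 to BRCA2, 11.6 and 11.4 TPM (-0.02). For RAD51C the 95% confidence interval of -0.42 to 0.38 leaves room for a moderate change in either direction.

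None of the 10 damage signalling genes was called, and their median log2 fold change was -0.05. ATM, the kinase that responds to double-strand breaks, was at 15.4, 14.8 and 8.02 TPM in the controls and at 13.8, 11.1 and 14.8 TPM after treatment. ATR, the kinase that responds to single-stranded DNA, was at 11.5, 12.1 and 8.28 TPM in the controls and at 9.20, 8.86 and 9.57 TPM after treatment. In both, control replicate 3 was the lowest library, the other controls of ATR lay above its treated libraries and those of ATM reached the same level as rutaecarpine replicate 3. The log2 fold changes were 0.09 for ATM and -0.17 for ATR. ATRIP, the partner that brings ATR to DNA, was at 5.51, 6.87 and 5.75 TPM in the controls and at 4.41, 3.44 and 4.14 TPM after treatment. The ATRIP groups did not overlap, and the log2 fold change was -0.50 (SE 0.17, adjusted p = 0.128). ATRIP shares exons on its strand with the nuclease gene TREX1, which was called lower (log2 fold change -0.94), so their reads cannot be fully told apart.

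CHEK1, the kinase activated by ATR, was at 11.5, 11.1 and 5.39 TPM in the controls and at 7.36, 7.15 and 9.15 TPM after treatment. Its treated libraries lay between control replicate 3 and the other controls, and the log2 fold change was -0.16 (SE 0.28). Without control replicate 3 it was -0.47 with an adjusted p of 0.0631. CHEK2, the kinase activated by ATM, was at 22.21, 21.67 and 15.98 TPM in the controls and at 14.34, 15.98 and 11.97 TPM after treatment. Here control replicate 3 equalled the highest treated library. CHEK2 had a log2 fold change of -0.47 (SE 0.18, adjusted p = 0.16) with all libraries and -0.61 (adjusted p = 0.0201) without that control.

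TOPBP1, which activates ATR, averaged 24.7 and 18.1 TPM (log2 fold change -0.36), and without control replicate 3 it was called with a log2 fold change of -0.69 (adjusted p = 0.00688). MDC1, which binds marked histones at breaks, averaged 8.14 and 8.35 TPM (0.06). TP53BP1, which protects broken ends from resection, averaged 28.4 and 38.1 TPM (0.46). RAD50 and NBN, subunits of the complex that senses broken ends, averaged 11.98 and 15.37 TPM (0.36) and 21.2 and 27.7 TPM (0.44). The positive values of TP53BP1, RAD50 and NBN became smaller without control replicate 3, at 0.14, 0.16 and 0.10, and none of the 3 was called either way.

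The 5 end-joining genes had a median log2 fold change of -0.08, and none was called. XRCC6 (Ku70) and XRCC5 (Ku80) form the ring that caps broken ends and were the most abundant of the 45 genes. XRCC6 was at 226, 230 and 239 TPM in the controls and at 223, 218 and 218 TPM after treatment. Its groups did not overlap, yet they differed little, with a log2 fold change of -0.08 (95% confidence interval -0.23 to 0.08). XRCC5 was at 129, 125 and 94.3 TPM in the controls and at 114, 104 and 119 TPM after treatment, with a log2 fold change of -0.03 (95% confidence interval -0.35 to 0.28). The XRCC5 control range enclosed the treated one. PRKDC, the kinase that Ku recruits, was at 64.44, 64.84 and 46.36 TPM in the controls and at 46.68, 47.58 and 52.95 TPM after treatment. Control replicate 3 lay just below the treated libraries for PRKDC, with a log2 fold change of -0.24 (adjusted p = 0.38) that was -0.39 (adjusted p = 0.0174) without it.

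LIG4, the ligase that seals joined ends, was the only repair gene whose treated libraries all lay above the controls. It was at 14.96, 15.62 and 6.48 TPM in the controls and at 18.2, 16.6 and 20.3 TPM after treatment. The log2 fold change of 0.62 was not called (SE 0.31, adjusted p = 0.275), and without control replicate 3, its lowest library, it was 0.25. POLQ, the polymerase of the end-joining route that uses short homologies, averaged 3.28 ± 1.99 and 1.61 ± 0.605 TPM (SD, n = 3), with control replicate 3 at 0.98 TPM and the other controls at 4.47 and 4.39 TPM. POLQ was not called with all libraries (log2 fold change -0.60, adjusted p = 0.431) and was without that control (-1.09, adjusted p = 0.0172).

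Of the 2 mismatch repair genes, MSH6, which recognises mispaired bases, averaged 26.1 and 22.1 TPM (log2 fold change -0.22). It was called without control replicate 3 at -0.37, with an adjusted p of 0.0476. PMS2, the nuclease subunit of the same system, averaged 6.80 and 8.18 TPM (0.27). PMS2 has many near-identical pseudogenes, of which PMS2P1 was at 22.8 to 25.1 TPM and PMS2CL at 3.28 to 6.89 TPM, so its own level is uncertain.

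**Figure D2:**
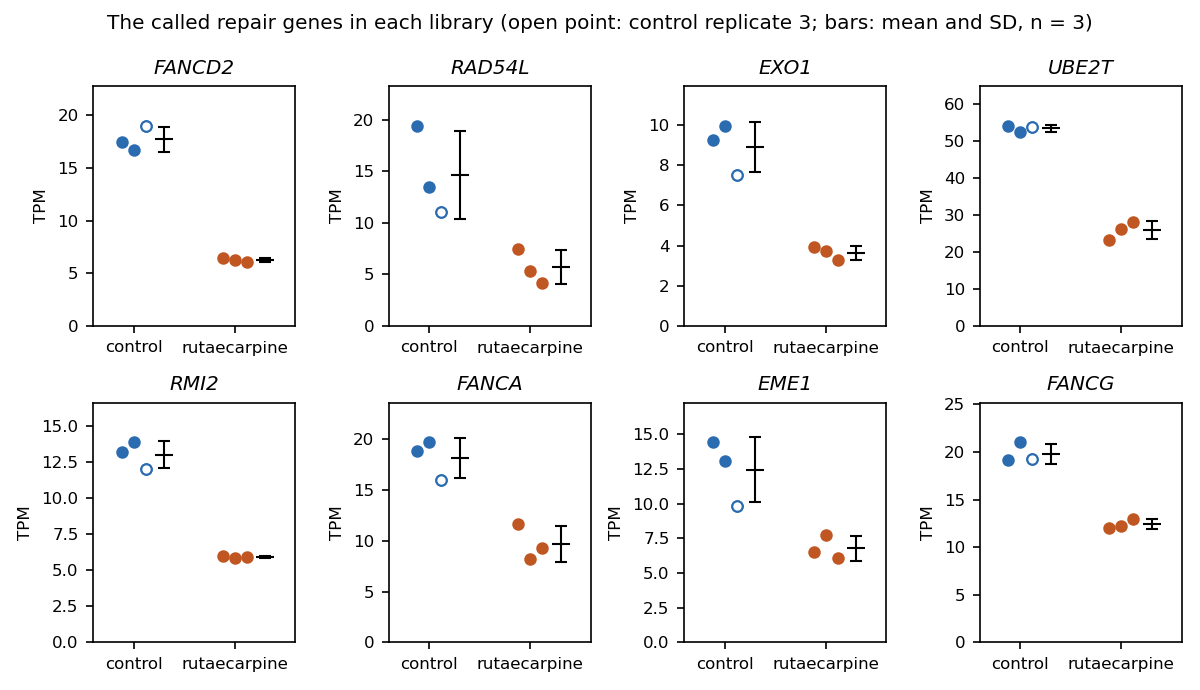
TPM (y axis, from 0, linear) of the 8 repair genes called lower, with a point per library, control in blue and rutaecarpine in orange, and the mean with its SD (n = 3) as bars. The open point is control replicate 3, and in each of the 8 panels all controls, this one included, sit above all treated libraries.

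**Figure D3:**
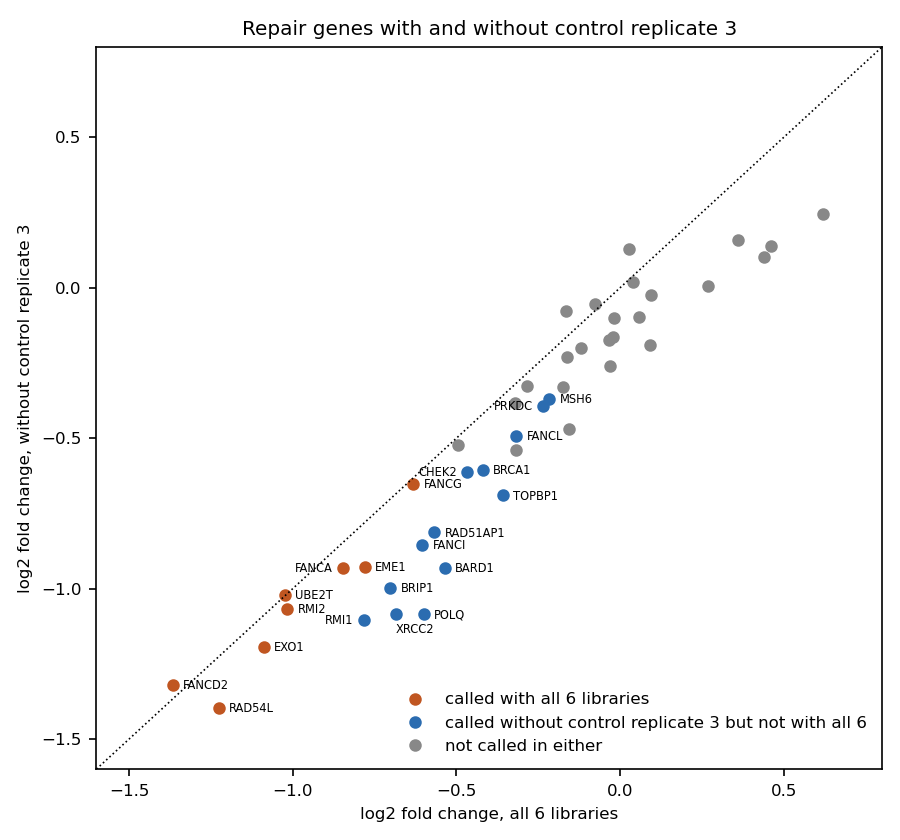
Log2 fold change of the 45 repair genes with all 6 libraries (x axis) and without control replicate 3 (y axis), each point a gene and the dotted line equality. The 8 orange genes were called both ways, the 13 blue genes were called without this control and not with it, and most points lie below the line.

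Of the 45 genes, 19 were listed as transcribed mainly in S and G2, a list drawn up with earlier results of these data known. These 19 held 7 of the 8 calls. All 19 had log2 fold changes below 0, from -1.37 to -0.03, and their median was -0.60. Those of BRCA2 and CHEK1 reached 0.30 and 0.011 when a library was left out. The other 26 genes held 1 call, FANCG, and had a median of -0.05. Of all tested genes 4.68% were called lower. Leaving out control replicate 3 gave 16 calls among the 19 and 5 among the 26, with medians of -0.93 and -0.17. In that fit 10.3% of all tested genes were called lower. Leaving out any one of the other libraries gave 3 to 5 calls among the 19 and 0 among the 26. In the same libraries, 19 of 32 DNA replication genes were called lower and 0 higher, with a median log2 fold change of -0.89. TYMS, which makes thymidylate, changed by -1.46, GINS2 of the replicative helicase by -1.43 and its motor subunit MCM3 by -1.27. Of 20 G2 and mitosis genes 16 were called lower and 0 higher, with a median of -0.95, led by KIF20A (-1.51), AURKB (-1.35) and the proliferation marker MKI67 (-1.35). In bulk RNA, fewer cells in S and G2 and less of these transcripts per cell cannot be told apart.

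Of 58 further genes of the same pathways, 6 were called lower and 0 higher, with a median log2 fold change of -0.06. Across all tested genes 4.68% were called lower and 4.6% higher. RECQL4, a helicase of replication and recombination, was at 32.8, 35.3 and 35.3 TPM in the controls and at 13.1, 15.8 and 14.4 TPM after treatment (log2 fold change -1.20, SE 0.12, adjusted p = 0.0015). H2AX, the histone that is phosphorylated at breaks, was at 53.9, 52.4 and 64.0 TPM in the controls and at 23.0, 26.2 and 26.9 TPM after treatment (-1.13, SE 0.12, adjusted p = 0.0021). For both genes, each treated library lay far below the lowest control. CENPX, a partner of FANCM and a centromere protein, changed by -0.78, PARP1, the sensor of nicks, by -0.68, and the subunits RPA2 and RPA1 of the single-strand binding complex by -0.52 and -0.51. Without control replicate 3, 15 of these 58 genes were called lower and 1 higher, and of all tested genes 10.3% and 8.36%.

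**Figure D4:**
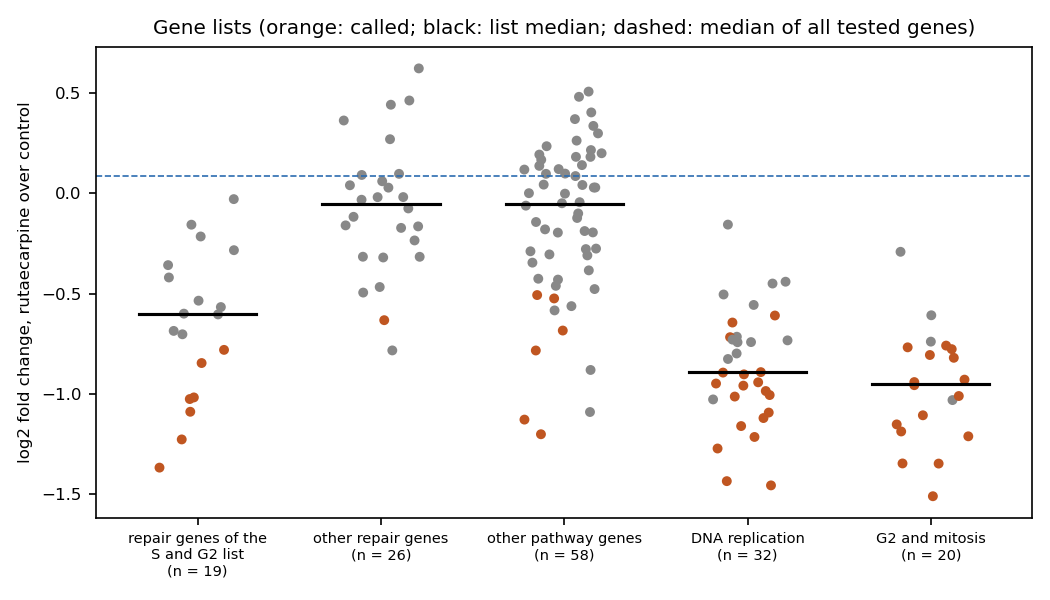
Log2 fold change (y axis) of each gene in 5 lists, with each list's median as a black line, called genes in orange and the median of all tested genes as a dashed line. Repair genes of the S and G2 list lie below 0 as the replication and G2 and mitosis genes do, while other repair genes and further pathway genes lie on both sides of 0.

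Ratios between partners within a library do not depend on how libraries were scaled, and 9 pairs were compared by an exact permutation test over the 6 libraries, two-sided, whose smallest p is 0.1. FANCD2 over FANCI was 0.496, 0.518 and 0.968 in the controls and 0.442, 0.371 and 0.248 after treatment. UBE2T over FANCL was 1.62, 1.54 and 2.33 in the controls and 1.01, 1.08 and 1.17 after treatment. EME1 over MUS81 was 0.416, 0.339 and 0.281 in the controls and 0.179, 0.232 and 0.145 after treatment. In these 3 pairs every treated ratio was below every control ratio, by 0.547, 0.605 and 0.533 times on average, each at the smallest exact p of 0.1 (adjusted over the 9 pairs 0.3). Control replicate 3 had the highest control ratio in the first 2 pairs and the lowest in the third, and without it the log2 differences moved from -0.87, -0.73 and -0.91 to -0.56, -0.54 and -1.05. The first subunit was lower relative to its partner in all treated libraries, and the design cannot take such a test below 0.05. In the other 6 pairs the groups overlapped. ATR over ATRIP was 1.33 times higher (exact p = 0.2), BRCA1 over BARD1 1.16 times (exact p = 0.5) and NBN over RAD50 1.05 times (exact p = 0.7). BRCA2 over PALB2, RMI2 over RMI1 and XRCC5 over XRCC6 were 0.981, 0.886 and 1.03 times the control ratio, each at an exact p of 1.0.

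**Figure D5:**
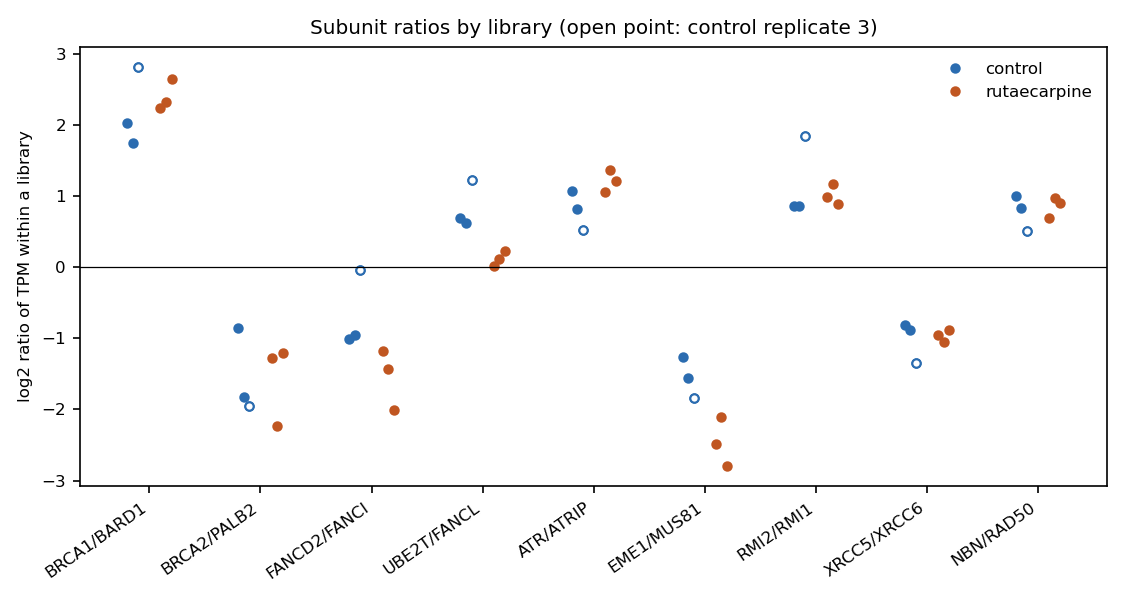
Log2 ratio of TPM (y axis) of both partners of 9 complexes within each library, control in blue and rutaecarpine in orange, with control replicate 3 as an open point. The orange points lie below all blue points for FANCD2/FANCI, UBE2T/FANCL and EME1/MUS81, and overlap them in the other 6 pairs.

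Several called genes share exon sequence with a gene on the opposite strand, and whether the libraries kept strand is not stated. RAD54L overlaps LRRC41 (log2 fold change 0.08), FANCA overlaps ZNF276 (0.01) and EME1 overlaps LRRC59 (0.06). RMI2 overlaps the pseudogene AC099489.2, which was at 3.51, 2.03 and 0 TPM in the controls and at 3.31, 0 and 0 TPM after treatment. None of these neighbours was called. Of the genes not called, CHEK1 shares exons on its own strand with STT3A, which was at 62.3 to 81.0 TPM (log2 fold change -0.04), well above CHEK1 itself. MUS81 shares exon sequence with CFL1 and EFEMP2 on the opposite strand, which reached 1809.5 and 180.8 TPM. MUS81 itself averaged 36.1 TPM in the controls. If strand was not kept, its level and the ratio of EME1 to MUS81 are uncertain. The pseudogene FANCD2P2 was at 0 TPM in every library.

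Markers were examined to check the label of the cells. VIM, NES and CD44, carried by U87, were present, with VIM at 4430 to 7968 TPM, whereas the glial markers S100B and SOX2 were at or below 0.25 TPM and GFAP was between 3.48 and 5.41 TPM. VIM and NES were themselves called lower after treatment, by log2 fold changes of -0.63 (adjusted p = 0.0089) and -0.53 (adjusted p = 0.0491). Of 6 markers of other cell types, PTPRC, ALB and EPCAM stayed at or below 0.80 TPM and PECAM1 was between 0.54 and 1.33 TPM. CD68, at 319 to 511 TPM, and SNAP25, at 14.7 to 27.5 TPM, were present, and CD68 was called lower after treatment. Their part in the differences was not tested.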

How the data were processed

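RNA from U87 cells was fragmented and sequenced by a company on an Illumina NovaSeq, genes were quantified in RSEM, and the table deposited by the authors holds TPM in 1 column per library. The submitters' processing notes name the build GRCh38.p13 and list DESeq2 and edgeR, which the authors used, with DEGseq, for their own comparison. The aligner, the annotation release, strand settings and filters are not given in the sources used here. RSEM divides reads that match several genes, so values of copies and overlapping genes are uncertain. All 6 columns were matched to a sample, with 0 unmatched.

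TPM were transformed to log2(TPM + 1), with a pseudocount of 1. The 14377 genes reaching 1 TPM in 3 or more libraries were compared with limma 3.58.1 in R 4.3.3 (empirical Bayes with a mean-variance trend, two-sided), with Benjamini-Hochberg adjustment across these genes. Genes were called up to an adjusted p of 0.05, and DEGs among them differed by more than 1 on the log2(TPM + 1) scale. The authors set the same limits on their own scale, with a stricter Q value for DEGseq. No scaling between libraries was added. The script was tested on simulated data before use. Depth and counting error cannot be given for TPM. Partner ratios were compared with exact permutation tests in scipy 1.17.1.

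Names came from the table (35671 of its rows have none) or an identifier table holding 60401 of the identifiers. Gene positions, lengths and GC content came from GENCODE 29 on GRCh38, and promoters from RefSeq on GRCh38.p14. For 50 of the 60 promoter windows the first 20 bases of the transcript lay in a GENCODE transcript on the same strand.

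The 45 genes and all lists were chosen with earlier results of these data known. All 45 are named, with values per library for the called genes, for those of smallest p up to 12 in all, and for BRCA1, BRCA2, FANCD2, ATM, ATR, CHEK1, PRKDC, XRCC5 and XRCC6. Of the further pathway genes those called are named, and of the replication, G2 and mitosis and p53 target lists at most 3 called genes each with the largest change.

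Alternatives were centring on library medians, other filters on low values, a pseudocount of 0.1, no trend, an adjusted p of at most 0.001, the replicate number as a block, a correction for length and GC content (natural splines, 5 degrees of freedom), both together, library weights, and leaving out each library. Leaving out control replicate 3 together with the correction was added after seeing the data. The 16 alternative fits counted for each called gene include this added setting. They leave out the adjusted p of at most 0.001, which is a stricter limit on the main fit.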

Additional observations from a re-analysis of the deposited data

How the results depend on the processing

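Under every alternative 0 of the 45 genes were called higher. With all libraries kept, the number called lower was 12 with centring, 11 with the length and GC correction, 6 with that correction and the block, 5 without a filter, 3 with the replicate block, 22 with library weights and 0 at an adjusted p of at most 0.001. In the same order up to library weights, the shares of all tested genes called lower were 5.47%, 5.59%, 3.36%, 1.5%, 1.34% and 14.1%. Leaving out each library in turn gave 3 to 21, and leaving out control replicate 3 with the length and GC correction gave 22. DEGs numbered 3 with the replicate block, 3 with the length and GC correction with or without the block, 3 to 8 when a library was left out, 8 with the added setting and 0 at the stricter p. Further pathway genes called lower numbered 2 with the block, 19 with weights, 2 to 15 when a library was left out and 15 with the added setting, and those called higher 2, 0 to 1 and 1 under the last 3 of these. Of all tested genes, 439 were called lower without a filter. The counts lower and higher were 192 and 236 with the block, 2027 and 1935 with weights, 258 to 1466 and 242 to 1186 when a library was left out, and 1708 and 1344 with the added setting. The cause was not tested.

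No repair gene that was called changed sign under any alternative. Uncalled values near 0 did. Centring gave XRCC3 -0.066, MUS81 -0.054, ATM -0.0029 and MDC1 -0.034. The length and GC correction, with or without the block, gave ATM -0.072. Library weights gave ATM -0.10 and MDC1 -0.13, and the added setting FANCF -0.016, MUS81 -0.0023, ATM -0.15 and MDC1 -0.062. When a library was left out, log2 fold changes ran from -0.26 to 0.30 for BRCA2, -0.16 to 0.094 for RAD51C, -0.10 to 0.086 for PALB2, -0.073 to 0.13 for XRCC3, -0.023 to 0.16 for FANCF, -0.19 to 0.24 for ATM, -0.098 to 0.26 for MDC1, -0.47 to 0.011 for CHEK1, -0.17 to 0.049 for XRCC5 and -0.047 to 0.11 for MUS81.

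Deviations of same-numbered libraries correlated at 0.116, -0.266 and -0.215, so no pairing by replicate number was seen. The highest correlation was 0.387, between control replicate 3 and rutaecarpine replicate 2. With 3 libraries in a group, and control replicate 3 apart, such correlations cannot exclude a shared batch. With the replicate block the calls were FANCD2, UBE2T and RAD54L. Library weights were 0.121 for control replicate 3 and 0.611 for rutaecarpine replicate 2. Centring moved the median of all tested genes from 0.08 to -0.01.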

Other observations

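Of 20 target genes of p53, the transcription factor that damage signalling kinases activate, 6 were called higher after rutaecarpine and 0 lower, with 2 DEGs and a median log2 fold change of 0.10. Across all tested genes 4.6% were called higher and 4.68% lower, and 2.01% were DEGs higher. GDF15, a stress-induced cytokine, was at 81.3, 101 and 144 TPM in the controls and at 331, 447 and 440 TPM after treatment (log2 fold change 1.92, SE 0.22, adjusted p = 0.00287 in limma). SESN2, a sestrin of the nutrient stress response, was at 26.5, 32.8 and 32.3 TPM in the controls and at 94.8, 92.7 and 115 TPM after treatment (1.69, SE 0.13, adjusted p = 0.000719). TNFRSF10B, a death receptor, averaged 63.6 and 117 TPM (0.88, adjusted p = 0.0256). In each of these the treated libraries all lay above the controls. GDF15, SESN2 and TNFRSF10B also answer to other stress signals, and 9 of the 20 genes had log2 fold changes below 0.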
